A study of Populus tremula x Populus alba with 3 samples.

Results

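Genes of DNA methylation were examined in shoot apices of hybrid poplar, as the 6 genes whose Arabidopsis best-hit name was MET1, CMT3, DME or IBM1. They were taken by that name from the 318 genes of the authors' deposited table, out of 41335 genes tested. They comprise 2 MET1 homologues, 1 CMT3 homologue, 1 DME homologue and 2 IBM1 homologues. Because the table lists genes by their result in the same comparison, the values below are a description of these genes and are not a test of them.

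RNA sequencing compared 2 lines over-expressing CsDML (OX1 and OX3, 1 library each) with wild type (1 library). All plants were clone 717-1B4, a Populus tremula × Populus alba hybrid, and all apices were taken after 28 days in SD. No label expands these abbreviations; SD is taken to be short days, under which poplar stops growing and forms buds, and CsDML to be a chestnut demethylase of the DEMETER family. The promoter driving the transgene is not stated in the labels. The authors joined both lines in 1 comparison, so each gene has a single fold change, a mean level, a p-value and an adjusted p-value, with no value per library and no standard error. With 1 wild-type library, the difference has no replicate check on the wild-type side, and the spread between the over-expressing lines is not shown. Depth is unknown, and the transgene has no row of its own, so its expression was not checked here.

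Cytosine methylation in plants is kept up by different enzymes in different sequence contexts. MET1 copies methylation at CG sites onto the new strand after DNA replication. CMT3 methylates CHG sites (H is any base but G) and is guided by methylation of histone H3 at lysine 9 (H3K9). DME belongs to a family of DNA glycosylases that cut out methylcytosine, so that it is replaced by plain cytosine. IBM1, a jmjC domain histone demethylase, removes H3K9 methylation from the bodies of active genes, and in Arabidopsis loss of IBM1 lets CHG methylation build up there. The roles are known from Arabidopsis and are assigned to the poplar genes by best hit only.

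In the authors' deposited table all 6 genes fell, at adjusted p-values under 0.05. Their log2 fold changes ran from -1.54 to -1.07, with a median of -1.41. Over all tested genes, 0.387% were called lower at that threshold (160 genes) and 0.104% higher (43 genes). At an adjusted p under 0.1, the limit for being listed, these shares were 0.578% lower and 0.191% higher. Nothing is read from the 6 of 6 beside these shares, since the genes were chosen from the called ones. The median over all 318 listed genes was -1.09 on the log2 scale, and over the 239 listed as lower it was -1.21. In RNA from whole apices, fewer cells expressing a gene and less RNA per cell cannot be told apart.

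**Figure D1:**
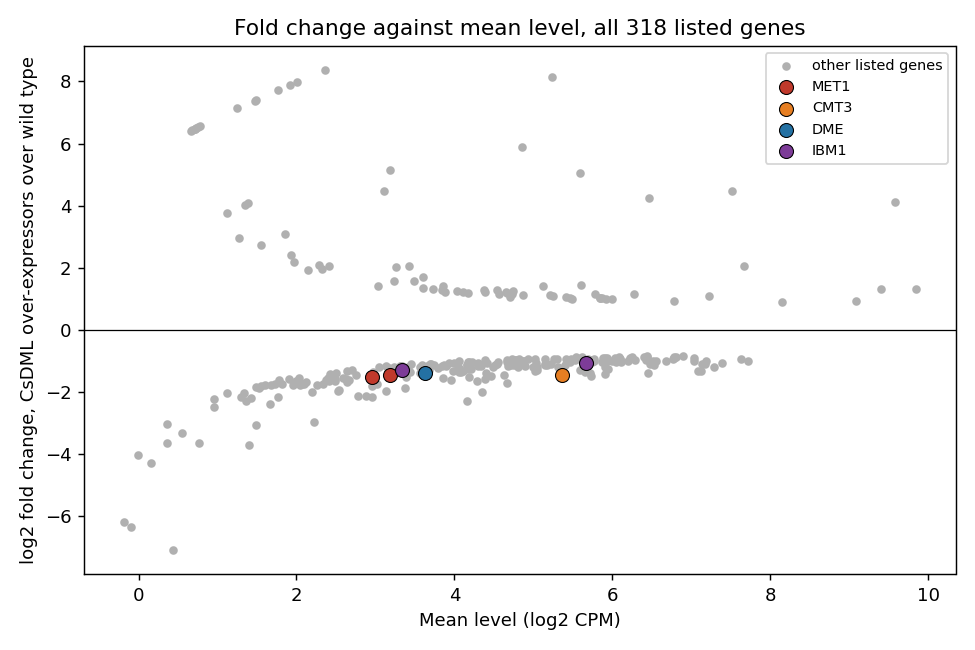
Log2 fold change of CsDML over-expressors over wild type (vertical axis) against mean level in log2 CPM (horizontal axis) for the 318 listed genes, 1 point a gene. The coloured points, homologues of MET1, CMT3, DME and IBM1, lie between -1.54 and -1.07, within the band of lower genes, which narrows towards 0 as the mean level increases.

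The maintenance methyltransferase had 2 listed homologues, and their changes were close. Per the authors' deposited table, the MET1 homologue Potri.004G134000, on chromosome 4 by its ID, fell with a log2 fold change of -1.54 (adjusted p 0.00749). Its homologue on unplaced sequence, Potri.T046100, fell with a log2 fold change of -1.47 (adjusted p 0.00741, authors' deposited table). The fold changes of the pair differed by 0.06 on the log2 scale. Levels per group were worked out from the deposited mean level and fold, taking the mean over 2 over-expressing libraries and 1 wild-type library. They are in CPM, which are reads scaled to the library total and not to gene length, so they compare groups within a gene and not one gene with another. On this scale Potri.004G134000 stood at 4.76 CPM in the over-expressors and 13.8 CPM in wild type. Potri.T046100 stood at 5.73 CPM in the over-expressors and 15.9 CPM in wild type. In the over-expressors Potri.004G134000 was thus at 34.5% of its wild-type level and Potri.T046100 at 36.0%.

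The counting of reads that match both copies is not described in the labels, so the split between the MET1 genes is uncertain. Summed, the MET1 homologues stood at 10.5 CPM in the over-expressors and 29.7 CPM in wild type, a log2 fold change of -1.50. Potri.004G134000 held 45.4% of that sum in the over-expressors and 46.5% in wild type, which restates the small difference between the deposited fold changes. Since CPM are not scaled to gene length, these shares do not give the part of each copy in MET1 expression.

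CMT3, the chromomethylase of CHG sites, had 1 listed homologue, Potri.001G009600 on chromosome 1. It fell with a log2 fold change of -1.45 and an adjusted p of 6.07e-05, per the authors' deposited table. Its worked-out level was 26.1 CPM in the over-expressors and 71.4 CPM in wild type, a fall to 36.6% of wild type. By p-value it ranked 30 of 41335 genes tested, ahead of the DME gene at 83, the MET1 genes at 85 and 86, and the IBM1 genes at 106 and 151.

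DME, the glycosylase that removes methylcytosine, was represented by Potri.010G234400 on chromosome 10, which fell with a log2 fold change of -1.38 and an adjusted p of 0.00733, per the authors' deposited table. Its worked-out level was 8.08 CPM in the over-expressors and 21.0 CPM in wild type. This DME homologue was thus at 38.5% of wild type in lines that carry a transgene taken to be of the same family. A link between its fall and the transgene was not tested. The other demethylases of the family in Arabidopsis, ROS1, DML2 and DML3, were not best hits of any listed gene.

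IBM1 had 2 listed homologues, both on chromosome 5 by their IDs. The authors' deposited table gives Potri.005G082900 a log2 fold change of -1.31 (adjusted p 0.0241). For Potri.005G091200 the log2 fold change was -1.07 (adjusted p 0.0147, authors' deposited table), so both genes fell. The worked-out level of Potri.005G082900 was 6.76 CPM in the over-expressors and 16.8 CPM in wild type, and that of Potri.005G091200 was 37.0 CPM in the over-expressors and 78.0 CPM in wild type. Potri.005G091200 therefore kept 47.5% of its wild-type level and Potri.005G082900 kept 40.4%. The fold changes of the IBM1 pair differed by 0.24 on the log2 scale, more than those of the MET1 pair, but no error of either fold change is available to test that. Summed over both genes, IBM1 stood at 43.8 CPM in the over-expressors and 94.7 CPM in wild type, a log2 fold change of -1.11. Of that sum, Potri.005G082900 held 15.4% in the over-expressors and 17.7% in wild type. CPM are not scaled to gene length, so these shares do not give the part of each copy in IBM1 expression. As for MET1, the counting of reads that match both copies is not described.

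**Figure D2:**
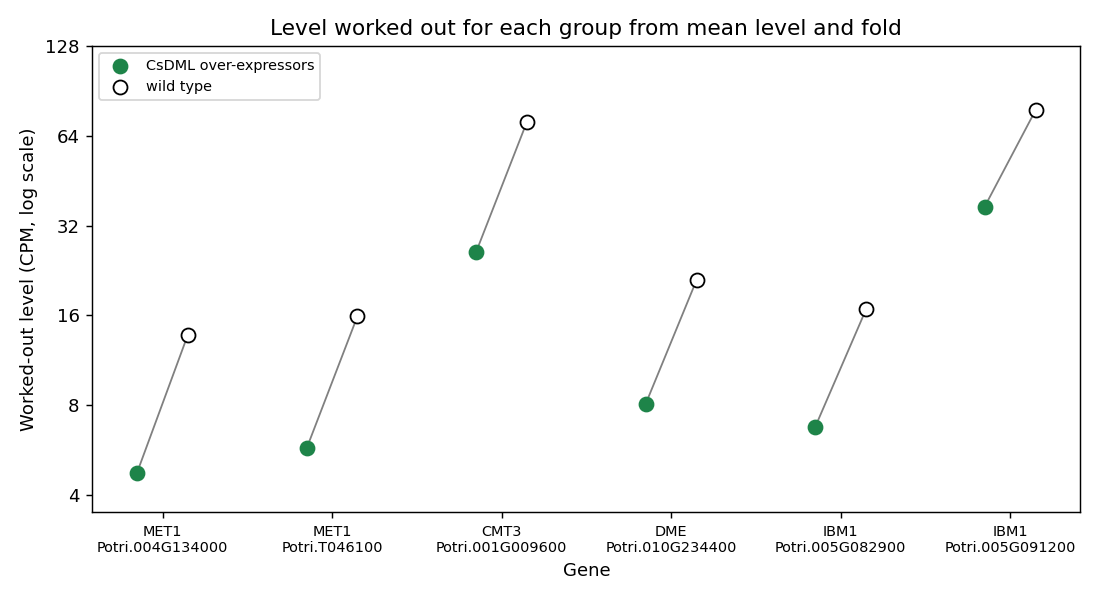
Levels in CPM (vertical axis, log scale) worked out for CsDML over-expressors (filled) and wild type (open) for each of the 6 genes (horizontal axis), 1 value per group with no error available. In each gene the over-expressors lie below wild type, from 34.5% of it in Potri.004G134000 to 47.5% in Potri.005G091200.

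The MET1 and IBM1 pairs were set beside other pairs of listed genes with the same best hit. The authors' deposited table holds 30 best hits with exactly 2 genes, and in all 30, the MET1 and IBM1 pairs among them, both genes were lower, where 239 of the 318 listed genes were lower. Reads that match both copies can tie the values of any such pair together, and their part was not tested. A pair was counted only if both genes were listed in this same comparison, so a copy that was not listed is not seen. The shared direction and the differences within pairs therefore describe listed genes only. The median difference within a pair was 0.11 on the log2 scale. In 10 of the pairs the fold changes were closer than in the MET1 pair, and in 20 they were closer than in the IBM1 pair. The 2 best hits with more than 2 genes included 1 with genes in both directions.

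Since the smallest change that was listed depended on level, each gene was set beside the other lower genes within 0.5 of its mean level on the log2 CPM scale. The contrast was widest for CMT3. Of 40 lower genes of like level in the authors' deposited table, 38 had a smaller change than CMT3 and 2 a larger one, and their median log2 fold change was -1.02. The DME gene had a larger change than 35 of 42 such genes, whose median was -1.24. Of the MET1 genes, Potri.T046100 had a larger change than 26 of 35 genes (median -1.33) and Potri.004G134000 a larger one than 23 of 39 (median -1.38). Of the IBM1 genes, Potri.005G091200 had a larger change than 31 of 43 genes (median -0.98) and Potri.005G082900 a larger one than 20 of 36 (median -1.29). With a window of 1 in place of 0.5, Potri.005G082900 had a larger change than 39 of 80 genes (median -1.33), and with a window of 0.25 Potri.004G134000 had one larger than 6 of 13 (median -1.62), so the side of the middle on which these genes lie depends on the window. The order of the genes by fold change alone therefore differs from their order among genes of like level. MET1 had the largest log2 fold changes of the 6, but CMT3 lay farthest from the median of the listed lower genes at its own level. Genes of that level that were not listed are left out of this comparison. No error of a fold change is available, so neither order was tested.

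**Figure D3:**
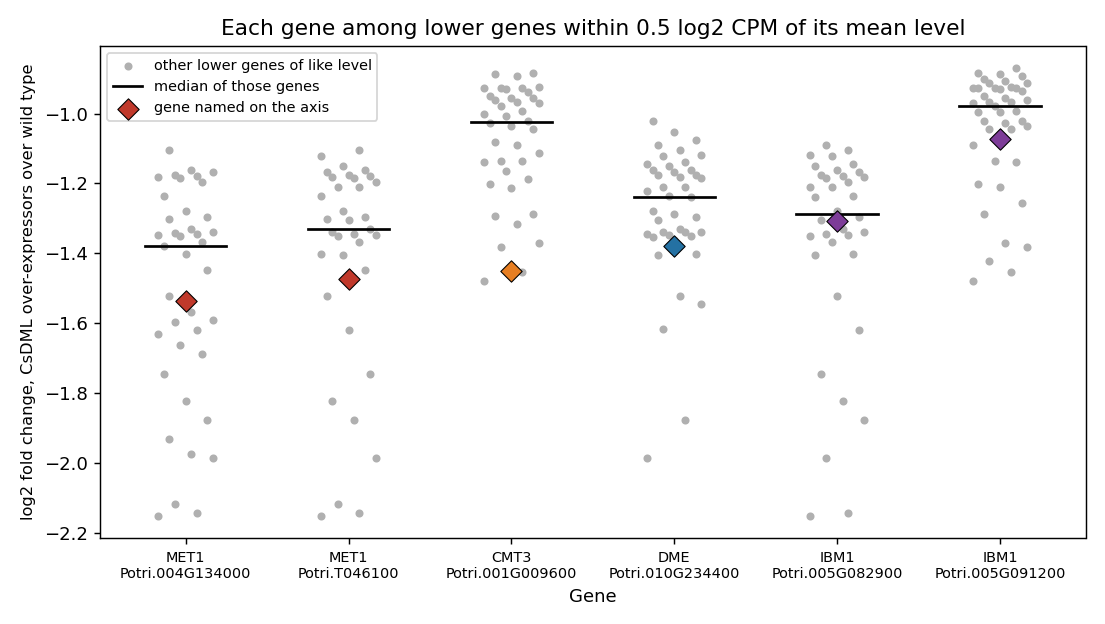
Log2 fold change of CsDML over-expressors over wild type (vertical axis) for each of the 6 genes (diamonds) and for the other listed lower genes within 0.5 log2 CPM of its mean level (grey points, with their median as a bar). CMT3 lies below 38 of its 40 neighbours, while the IBM1 gene Potri.005G082900, at -1.31, lies close to the median of its neighbours, -1.29.

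The smallest changes listed at these levels were also read out. Per the authors' deposited table, the smallest listed log2 fold change of a lower gene was -1.10 near the MET1 gene Potri.004G134000, and near CMT3 it was -0.88. Near the DME gene it was -1.02, and near the IBM1 gene Potri.005G091200 it was -0.87. With a window of 0.25 or 1, the value near Potri.004G134000 was -1.18 or -1.05, and that near the DME gene -1.09 or -0.98. These values describe the listed genes and set no limit on the change of a gene that is not listed.

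The genes nearest to each of the 6 in fold change and mean level were read out as a measure of likeness, over this single comparison. The gene nearest to CMT3 was Potri.001G093700, described as an HMG box protein, for which the authors' deposited table gives a log2 fold change of -1.45 (adjusted p 6.12e-05). The nearest to the MET1 genes were Potri.003G192400, a homologue of the microtubule-associated protein MAP65-5, and Potri.009G156000, a P-loop hydrolase. The authors' deposited table gives them log2 fold changes of -1.62 (adjusted p 0.00374) and -1.40 (adjusted p 0.0160). The nearest to the DME gene was Potri.001G139600 (PGP2, a P-glycoprotein), followed by a histone gene, Potri.001G016700. Their log2 fold changes, per the authors' deposited table, were -1.40 (adjusted p 0.00602) and -1.30 (adjusted p 0.0133). The nearest to the IBM1 genes were Potri.012G032700 (SOT16, a sulfotransferase) and Potri.009G047800 (CHR5, a chromatin remodeller). Per the authors' deposited table, their log2 fold changes were -1.33 (adjusted p 0.0208) and -1.04 (adjusted p 0.0207). The second-nearest genes not yet named were an unannotated gene and genes described as a binding protein, a DUF1162 protein, a WD40 repeat protein and THO2, a subunit of the RNA export complex THO. All of the nearest genes are lower genes, which follows from picking them by a like fold change. Likeness over 1 fold change and 1 level says little about a pattern.

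A wider list of DNA methylation genes was looked up by Arabidopsis best hit. It held 42 Arabidopsis genes, covering methyltransferases, demethylases, readers of methylated DNA, H3K9 methyltransferases, regulators of IBM1 and RNA-directed DNA methylation. Of these, 5 were the best hit of a listed gene, with 7 poplar genes in all. The 7 fell at an adjusted p under 0.05, where 0.387% of all tested genes were called lower. Their median log2 fold change was -1.38. Since 6 of the 7 are the genes already chosen from the called ones, nothing is read from this count about the pathway. The gene that adds to the 6 was Potri.008G032800, a homologue of KTF1, an SPT5-like factor of RNA-directed DNA methylation. The authors' deposited table gives it a log2 fold change of -1.12 (adjusted p 0.00404), with worked-out levels of 101.0 CPM in the over-expressors and 219.0 CPM in wild type. The other 37 Arabidopsis genes of the list had no listed homologue. Among them were the de novo methyltransferases DRM1 and DRM2, the chromomethylase CMT2, the remodeller DDM1, the VIM readers of hemimethylated DNA, and SUVH4, the H3K9 methyltransferase that works with CMT3. Their absence shows only that no homologue reached an adjusted p under 0.1, that none was tested, or that it was given another best hit, and not that they were equal between the groups.

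The jmjC domain genes, the family of IBM1, were looked up after their values were seen. The authors' deposited table describes 4 of its 318 genes so, and these 4 fell, where 239 of the 318 were lower and 0.387% of all tested genes were called lower at that threshold. How many jmjC domain genes were tested is unknown, so nothing is read from this count about the family. The 2 beyond IBM1 were Potri.015G012800, with best hit AT4G00990, and Potri.003G126600, with best hit AT1G63490. Their log2 fold changes there, per the authors' deposited table, were -1.29 (adjusted p 0.000753) and -0.96 (adjusted p 0.0469). Potri.015G012800 had worked-out levels of 32.6 CPM in the over-expressors and 79.6 CPM in wild type. Its p-value ranked 45 of those tested, ahead of both IBM1 genes.

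MET1 acts behind the replication fork, so genes of DNA replication and S phase were also looked up. Of 26 Arabidopsis genes of that list, 2 were the best hit of a listed gene. Over all tested genes, 0.578% were listed as lower and 0.191% as higher. How many poplar homologues of the list were tested is unknown, so nothing is read from this count about replication genes. The homologue of ICU2, the catalytic subunit of DNA polymerase alpha (POLA1; Potri.007G045300), fell with a log2 fold change of -1.11 and an adjusted p of 0.0147, per the authors' deposited table. RNR1, the large subunit of ribonucleotide reductase that makes DNA precursors (Potri.007G076700), did not pass 0.05, with the over-expressors at 50.0% of wild type by the fold of the authors' deposited table (adjusted p 0.0595). The other 24, among them the MCM helicase subunits, the PCNA clamps and the chromatin assembly factors FAS1 and FAS2, had no listed homologue. As for the methylation list, this absence does not show that they were equal between the groups. Of 5 apex identity genes looked up (STM, KNAT1, WUS, CLV1 and ANT), 0 were best hits of a listed gene, and a table of differences does not show whether they were expressed. Of 3 leaf genes, LHCA3, a light-harvesting protein, rose (Potri.014G198400, log2 fold change 1.43, adjusted p 0.00135, authors' deposited table), and 2 were not listed. The part of tissue make-up or of cell division in the lower methylation genes was not tested.

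**Figure D4:**
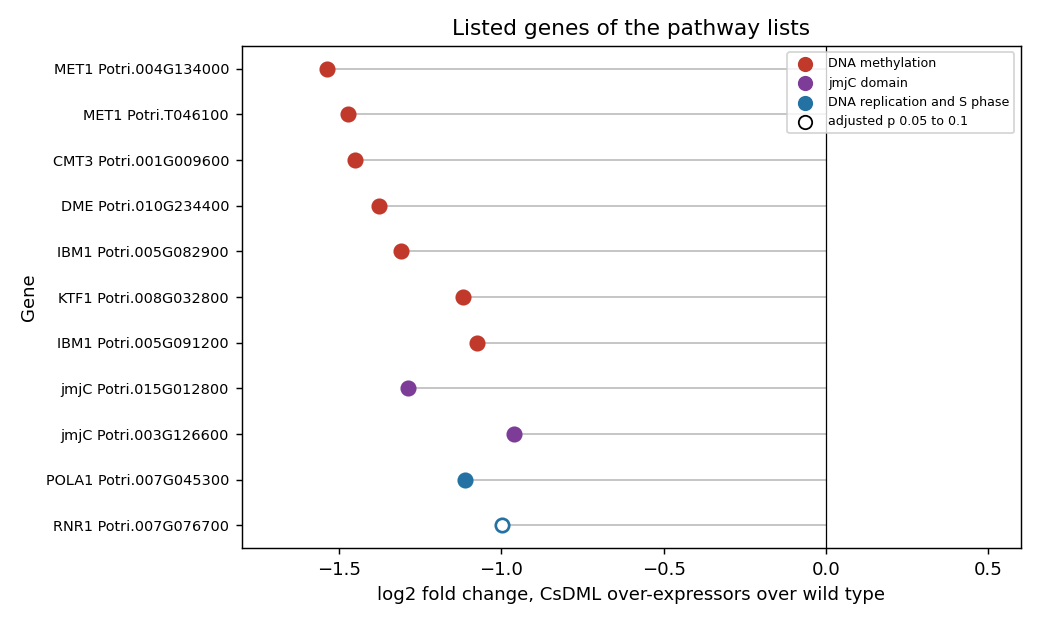
Log2 fold change of CsDML over-expressors over wild type (horizontal axis) for each listed gene of the DNA methylation list, the jmjC domain genes beyond IBM1 and the DNA replication and S phase list (vertical axis), 1 point a gene. Each point lies below 0, and the open point, RNR1, is the one with an adjusted p between 0.05 and 0.1.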

How the data were processed

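RNA was sequenced from 3 libraries, prepared with a strand-keeping kit per the labels' protocols. The authors used FastQC, TopHat and edgeR, per the submitters' processing notes, whose versions are not given here; neither are the genome build, the read counter and the kind of test. The deposited values, per the file headers, are for each gene a log2 fold change, a mean level as log2 CPM, a p-value and its FDR. The log base is not stated and is read as 2 because the authors' column names are those of edgeR.

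The number of genes tested was recovered from p, rank and adjusted p; Benjamini-Hochberg values over 41335 tests matched 318 of 318 rows within a relative tolerance of 1e-06. No test was added. Levels per group were worked out from mean level and fold, ignoring the small constant that such fits add to counts. The scripts (Python 3.11.15, pandas 2.3.3) recovered 20000 simulated tests and 200 simulated levels. Genes and lists were chosen with earlier results of these data known. Named genes were the members, listed rows of the DNA methylation and replication lists, and the 2 nearest rows per member. The planned per-line comparison could not be made, because the table has no values per line. No sequence is shown.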

Additional observations from a re-analysis of the deposited data

How the results depend on the processing

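The same 6 genes were found by Arabidopsis ID. Neither an adjusted p under 0.1 nor a fold of at least 1 on the log2 scale could remove any of them, since each is past both, so these settings say nothing of stability. At an adjusted p under 0.01, 4 were left and the IBM1 genes were not among them. Over the table, 160 lower and 43 higher genes at 0.05 became 71 lower and 23 higher at 0.01, and 79 higher at 0.1. The 7 genes of the DNA methylation list were found by name as well as by ID. With each group weighted equally, the worked-out levels changed by -16.2% to -11.9%, and with the mean level taken as a mean of log2 CPM they were 6.77% to 14.5% higher; the fold of each gene is fixed by the deposited value. With windows of 0.25 and 1 in place of 0.5, chosen after seeing the data, CMT3 had a larger change than 94.1% and 92.9% of lower genes of like level, the DME gene than 82.4% and 69.5% (83.3% at 0.5), the MET1 gene Potri.004G134000 than 46.2% and 55.1% (59.0% at 0.5), Potri.T046100 than 70.8% and 64.1% (74.3%), and the IBM1 genes than 54.5% and 48.8% (Potri.005G082900, 55.6% at 0.5) and 78.3% and 65.5% (Potri.005G091200, 72.1%). No paired analysis was possible because the table holds 1 value per gene for the whole comparison. Leaving out a line was not run for the same reason. The unknown depth sets a limit that was not measured.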
